A study of Mus musculus with 12 samples.

Results

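Hemoglobin RNA and the RNA of the erythroid enzyme that starts heme synthesis were followed in sorted mouse midbrain cells. The genes were chosen by symbol, and the 5 listed were Hba-a1, Hba-a2, Hbb-bs, Hbb-bt and Alas2. Of these, 4 had a row among the 24346 genes of the deposited tables, and Hbb-bt had none in the tables used here. Cells marked by hKO1, which in this study labels dopaminergic neurons, had been sorted from dissected midbrain of C57BL/6 mice, and RNA was sequenced after amplification of the cDNA. The 4 groups of 3 libraries were synuclein at 7 weeks, saline at 7 weeks, synuclein at 12 weeks and saline at 12 weeks. Synuclein mice had received preformed fibrils of the G51D form of α-synuclein (20 µg at 5 µg/µL) into the substantia nigra on both sides, and saline mice had received saline in the same way. Cells of all 4 groups were sorted by hKO1, and neither the vector or line that carries it, nor the age of the mice, nor whether animals were pooled is given in the sources used here.

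Hemoglobin carries oxygen in red blood cells as a tetramer of alpha and beta chains, each of which holds a heme. In adult mice the alpha chains come from the neighbouring genes Hba-a1 and Hba-a2 and the beta chains of the C57BL/6 haplotype from Hbb-bs and Hbb-bt. Alas2 is the erythroid 5-aminolevulinate synthase, which makes the first intermediate of heme in developing red cells, while Alas1 does so in other tissues. Mature mouse red cells have no nucleus but reticulocytes still hold globin RNA, and globin RNA has also been described in midbrain dopaminergic neurons. The libraries are bulk samples, in which fewer cells of a type and less RNA per cell cannot be told apart.

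The libraries held 2506731 to 5533322 assigned fragments, and 3 libraries per group limit the precision of every comparison. Dopaminergic markers were present, and the 14 listed summed to 658 to 2790 CPM (counts scaled to library size by TMM) over the 12 libraries. Of these, 1 averaged under 1 CPM, and Th, which encodes tyrosine hydroxylase of the dopamine pathway, stood at 161 to 858 CPM. Markers of other cells were present as well, and the 12 endothelial markers summed to 9517 to 24877 CPM and the 10 oligodendrocyte markers to 15812 to 43086 CPM. Replicates 1 and 2 of synuclein at 12 weeks lay apart from the other libraries in an earlier analysis, and replicate 2 had 17409 genes with a fragment, against 19960 to 21135 in the others. The labels do not tell whether replicates come from different animals, so each p rests only on spread between these samples, which may be technical. The p values and standard errors of the edgeR fit also draw on the spread of all genes.

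The rows of near-identical globin genes must be read by locus. In the deposited coordinates, read as mm10 (GRCm38), the rows Hba-a1 and Hba-a2 lay at 1 place, chr11:32283672-32284493, which is the RefSeq Hba-a1 gene. No row used here overlapped the RefSeq Hba-a2 gene at chr11:32296492-32297310, whose coding sequence differs from that of Hba-a1 at 1 of 429 bases. The rows Hbb-bs and Hbb-b1 likewise shared chr7:103826523-103827929, the RefSeq Hbb-bs gene. The row Hbb-b2 lay at chr7:103812524-103813923, the RefSeq Hbb-bt gene, and is described here beside the members under its own name. Hbb-b1 and Hbb-b2 are the names of the paired beta genes of another mouse haplotype. The coding sequences of Hbb-bs and Hbb-bt also differ at 1 base, of 444. Alas2 lay at chrX:150547385-150570622, where the deposited table also lists the microRNA gene Mir3620, and the counting is not stated to use strand.

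The promoter windows of these genes, on 3 chromosomes, are given as a description, and their part in the RNA levels was not tested. Each is the 250 bases before the RefSeq start of the gene (build GRCm38.p6), read 5′ to 3′ along the strand of the gene. Capitals mark matches, on either strand, to the letters of 4 motifs known from erythroid promoters. The first is GATAA, which GATA factors such as the erythroid factor GATA1 bind, and which reads TTATC from the opposite strand. The second is CACCC, known for the binding of KLF1 and its relatives, and written GGGTG when it lies on the opposite strand. The next is CCAAT, the box of many promoters, which appears as ATTGG if reversed. The last is ATATAA, a form of the TATA box that sets the start of transcription, whose reverse is TTATAT.
Hba-a1: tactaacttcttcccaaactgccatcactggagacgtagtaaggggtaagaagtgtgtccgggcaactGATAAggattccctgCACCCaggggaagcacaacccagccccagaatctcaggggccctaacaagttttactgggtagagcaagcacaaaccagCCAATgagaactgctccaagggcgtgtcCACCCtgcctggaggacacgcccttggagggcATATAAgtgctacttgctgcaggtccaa
Hbb-bs: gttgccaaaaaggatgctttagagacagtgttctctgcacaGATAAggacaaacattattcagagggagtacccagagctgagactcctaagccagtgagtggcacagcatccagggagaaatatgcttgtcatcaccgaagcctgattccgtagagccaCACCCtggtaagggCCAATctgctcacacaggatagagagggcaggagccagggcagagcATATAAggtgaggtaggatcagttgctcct
Hbb-bt: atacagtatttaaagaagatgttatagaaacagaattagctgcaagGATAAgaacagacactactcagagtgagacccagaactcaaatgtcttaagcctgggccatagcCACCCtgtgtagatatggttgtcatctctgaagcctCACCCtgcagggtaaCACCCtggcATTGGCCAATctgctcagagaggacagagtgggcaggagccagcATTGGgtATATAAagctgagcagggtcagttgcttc
Alas2: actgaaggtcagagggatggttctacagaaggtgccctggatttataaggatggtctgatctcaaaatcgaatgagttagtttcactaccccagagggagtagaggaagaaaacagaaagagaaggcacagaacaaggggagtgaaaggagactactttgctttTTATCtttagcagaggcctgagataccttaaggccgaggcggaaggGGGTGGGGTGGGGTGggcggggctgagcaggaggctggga
The windows cover chr11:32283422-32283671 (plus strand) for Hba-a1, chr7:103827929-103828178 (minus strand) for Hbb-bs, chr7:103813924-103814173 (minus strand) for Hbb-bt and chrX:150547167-150547416 (plus strand) for Alas2. The window of Hba-a2 was identical to that of Hba-a1 over all 247 bases that the pair share at an offset of 3 bases, and is not printed.

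All the globin windows held all 4 motifs, which 153 of 32851 windows of the same length did (0.466%). The ATATAA match began 28 bases before the start in Hba-a1, 30 in Hbb-bs and 29 in Hbb-bt. The CCAAT match on the gene's strand began 88 bases before the start in Hba-a1, 76 in Hbb-bs and 75 in Hbb-bt. Hbb-bt held 3 CCAAT matches, of which 1 pair, on opposite strands, stand back to back with no base between them. The Alas2 window held 1 GATAA and 3 CACCC matches, all on the opposite strand, and the CACCC matches follow each other directly. It held neither of the other 2 motifs. Singly these letters are common, with the GATA letters in 22.6%, the CACCC letters in 52.0%, the CCAAT letters in 33.8% and the TATA letters in 9.10% of all windows. The motifs were chosen because they are known from erythroid promoters, and the Hba-a1 and Hba-a2 windows are nearly the same sequence. The share of windows with all 4 motifs is therefore no test. A match is a description of the sequence and says nothing of binding.

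Hba-a1, the alpha globin gene, was the most abundant of the members and among the most abundant RNAs in the sorted material. Its mean of 2610 FPKM (fragments scaled to gene length and library size, a level per length) ranked 12 of the 24346 rows, and its rank lay between 7 and 122 in single libraries. In synuclein at 7 weeks its replicates 1, 2 and 3 had 1002, 207 and 1182 CPM, against 647, 480 and 1371 CPM in saline at 7 weeks. In synuclein at 12 weeks they had 320, 1675 and 869 CPM, against 1148, 761 and 1531 CPM in saline at 12 weeks. The lowest library, replicate 2 of synuclein at 7 weeks, and the highest, replicate 2 of synuclein at 12 weeks, were both synuclein libraries and stood 8.07-fold apart. The groups overlapped in every comparison. The group means were 797 ± 519 CPM in synuclein at 7 weeks, 832 ± 474 in saline at 7 weeks, 954 ± 682 in synuclein at 12 weeks and 1147 ± 385 in saline at 12 weeks (SD, n = 3 each). The deposited FPKM of Hba-a1 lay above its own deposited upper bound in 12 of 12 libraries, so its level per length is less certain than the counts.

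The Hba-a2 row received almost nothing, between 0.770 and 1.54 fragments per library, and did not pass the filter on low counts. The files give the alpha rows 1 place, so that row does not measure the Hba-a2 gene, and reads of the near-identical copies could not be told apart.

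The beta globin locus Hbb-bs was divided between its rows in a way that differed from library to library. Recovered fragments, obtained by dividing each library by its scaling step, were whole numbers within 0.02 for the sum of the rows Hbb-bs and Hbb-b1 in 12 of 12 libraries. For either row alone they were whole in 0 of 12. The Hbb-bs row received 0.003% to 33.5% of the locus. In synuclein at 7 weeks its replicates 1, 2 and 3 had 0.070, 208 and 85.5 fragments, against 74.9, 0.058 and 76.2 in saline at 7 weeks. In synuclein at 12 weeks they had 0.044, 333 and 79.8, against 85.2, 142 and 287 in saline at 12 weeks. The row was therefore close to empty in 3 libraries of 3 groups in which the locus as a whole held 756 to 2258 fragments. Its largest share was in the library with the fewest fragments at the locus. A fold change of the Hbb-bs row alone reads this division, so the sum of both rows is given beside it. That sum was chosen after the values had been seen.

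**Figure D1:**
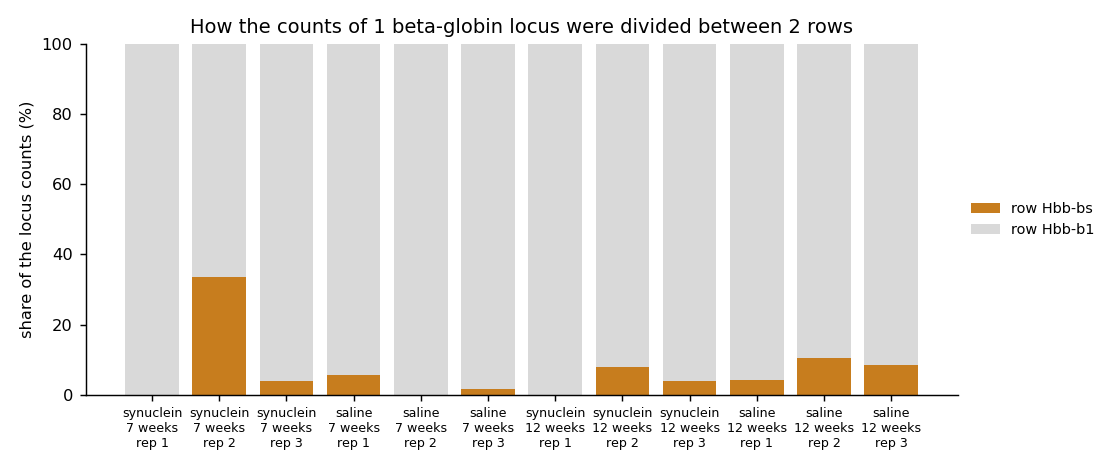
Share of the counts of the Hbb-bs locus (%) given to the row Hbb-bs (orange) and to the row Hbb-b1 (grey), 1 bar per library. The Hbb-bs row held 33.5% in replicate 2 of synuclein at 7 weeks, under 0.006% in 3 libraries and 1.54% to 10.6% in the others.

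Taken as 1 locus, Hbb-bs with Hbb-b1 had 693, 143 and 809 CPM in replicates 1, 2 and 3 of synuclein at 7 weeks, against 401, 373 and 974 CPM in saline at 7 weeks. At 12 weeks the values were 220, 901 and 493 CPM in synuclein, against 706, 490 and 894 CPM in saline. Its mean level per length was 1366 FPKM over the 12 libraries. As for Hba-a1, replicate 2 of synuclein at 7 weeks and replicate 1 of synuclein at 12 weeks were the lowest, and the groups overlapped.

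The Hbb-b2 row, at the Hbb-bt locus, had 146, 21.2 and 131 CPM in replicates 1, 2 and 3 of synuclein at 7 weeks, against 78.7, 59.7 and 195 CPM in saline at 7 weeks. At 12 weeks it had 69.4, 254 and 116 CPM in synuclein, against 239, 135 and 216 CPM in saline. Its fragments were whole in 12 of 12 libraries and numbered 92 to 1203. Its mean level per length, 321 FPKM, was below that of the Hbb-bs locus in every library.

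Alas2, the erythroid heme enzyme, had 106, 16.3 and 92.6 CPM in replicates 1, 2 and 3 of synuclein at 7 weeks, against 50.7, 39.8 and 135 CPM in saline at 7 weeks. In synuclein at 12 weeks it had 53.6, 186 and 85.9 CPM, against 91.1, 70.1 and 185 CPM in saline at 12 weeks. The libraries that were lowest and highest for Hba-a1 were so for Alas2, 11.4-fold apart, and all groups overlapped. These values rest on 71 to 881 fragments. Per length, Alas2 stood at a mean of 50.9 FPKM, and in single libraries at 1.53% to 3.31% of the Hba-a1 level.

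**Figure D2:**
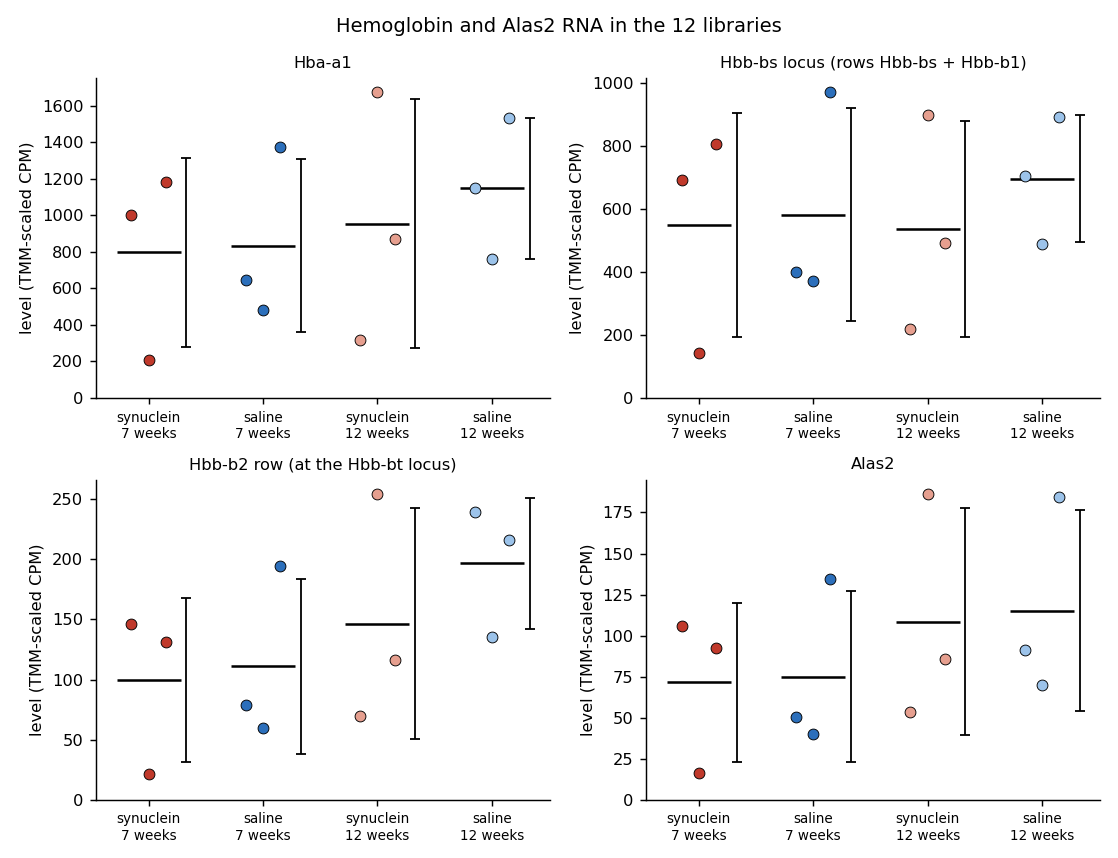
TMM-scaled CPM of Hba-a1, of the Hbb-bs locus, of the Hbb-b2 row and of Alas2, with 1 point per library, the group mean (line) and its SD (bar), on linear axes from 0. The libraries of each group are spread widely, and for Hba-a1 they range between 207 and 1675 CPM with synuclein and saline groups overlapping at both times.

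Put in order of level per length, the rows ran from Hba-a1 (2610 FPKM) through the Hbb-bs locus (1366 FPKM) and the Hbb-b2 row (321 FPKM) to Alas2 (50.9 FPKM). By the deposited FPKM that order held in all 12 libraries, with beta, the Hbb-b2 row included, at 0.570 to 0.748 of alpha and Alas2 below the Hbb-b2 row in each. The place of Hba-a1 in it is uncertain, because its FPKM lies above its deposited bounds. At the middle of those bounds, in the authors' deposited table, Hba-a1 averaged 1488 FPKM and would rank 27, the Hbb-bs locus stood above it in 3 of 12 libraries, beta came to 0.981 to 1.35 of alpha, and Alas2 to 2.54% to 5.46% of Hba-a1. This reading was chosen after the values had been seen. Within either reading the ratio of beta to alpha varied little, with a coefficient of variation of 9.09% by FPKM and 9.81% by the middle of the bounds, although the Hba-a1 level itself varied 8.07-fold in CPM. The globin rows together held 0.0363% to 0.267% of the deposited counts of a library.

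The spread of these rows within groups was among the highest of the abundant genes. The SD of log2 CPM within groups was 1.03 for Hba-a1, 1.08 for Hbb-b1, 1.03 for Hbb-b2 and 1.05 for Alas2, against a median of 0.34 over the 4605 genes with a mean of at least 50 CPM. These SDs ranked 19, 14, 18 and 16 from the highest of those genes. The Hbb-bs row, with a mean of 30.3 CPM, had an SD of 2.94. The ranking and its minimum of 50 CPM were chosen after the values had been seen, and are a description with no test.

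The rows varied together from library to library, across chromosomes. Alas2 followed Hba-a1 with a Pearson r of 0.94 over the 12 libraries (log2 CPM, permutation p = 1e-05, the smallest that the resampling can give, adjusted p = 5.33e-05 over 16 relations), and with a Spearman rho of 0.96 (permutation p = 4e-05). Without the 2 libraries farthest from the median of Hba-a1, replicate 1 of synuclein at 12 weeks and replicate 2 of synuclein at 7 weeks, r was 0.97. Within the 6 libraries at 12 weeks r was 0.91 (exact permutation p = 0.00139) and within the 6 at 7 weeks 0.99 (exact permutation p = 0.00278). Without replicates 1 and 2 of synuclein at 12 weeks, which lie apart, it was 0.98.

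The beta rows did the same. The Hbb-bs locus followed Hba-a1 with an r of 0.99 and a rho of 0.98 (permutation p = 1e-05 for both, adjusted p of r 5.33e-05), and r was 0.96 without the 2 farthest libraries. The Hbb-b2 row had an r of 0.95 (permutation p = 2e-05, adjusted p = 8e-05) and a rho of 0.90 (permutation p = 9e-05), with an r of 0.93 without those 2 libraries. At 12 weeks r was 0.996 for the locus and 0.947 for the Hbb-b2 row (exact permutation p = 0.00139 and 0.00972, 6 libraries), and at 7 weeks 0.995 and 0.992 (exact permutation p = 0.00139 and 0.00278). The Hbb-bs row alone had an r of 0.36 (permutation p = 0.246, adjusted p = 0.477) and a rho of 0.44 (permutation p = 0.159). Relations with the Hbb-b2 row, Hbb-b1 and the locus sum were added after values had been seen.

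**Figure D3:**
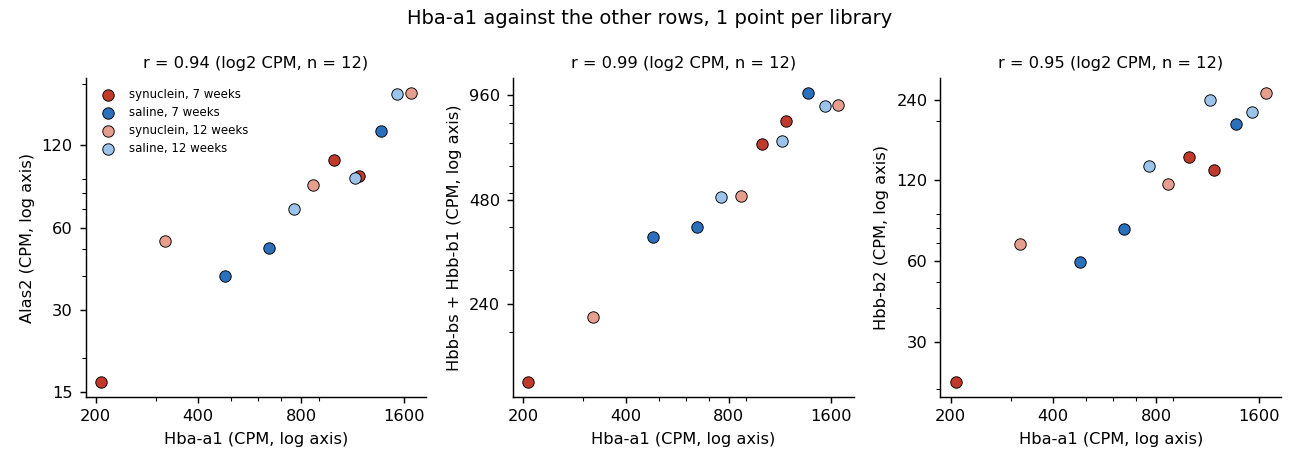
CPM of Alas2, of the Hbb-bs locus (rows Hbb-bs and Hbb-b1 summed) and of the Hbb-b2 row against Hba-a1, both axes logarithmic, 1 point per library coloured by group. The points lie along a line in each panel, with r of 0.94, 0.99 and 0.95, and points of all 4 groups are mixed along it.

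Over all 12 libraries no marker list of another cell type passed the same test of its relation to Hba-a1, but the microglia list passed by rho when libraries that lie apart were left out. Its rho was 0.47 (permutation p = 0.128) over the 12 libraries and 0.82 (permutation p = 0.00373, adjusted p = 0.0119) without replicate 2 of synuclein at 12 weeks. Without replicates 1 and 2 of that group it was 0.81 (permutation p = 0.0082, adjusted p = 0.0262), while its r of 0.65 and 0.53 in these settings did not pass (adjusted p = 0.0954 and 0.336). The part of microglia in the globin levels was not tested. The mean log2 CPM of the erythroid marker list gave an r of -0.10 (permutation p = 0.764), the endothelial list -0.08 (permutation p = 0.807) and the pericyte and smooth muscle list 0.10 (permutation p = 0.762). The erythroid list mixes markers at low levels with others that are not specific to red cells, such as Bpgm. Singly, its 14 tested genes had an r of -0.47 to 0.40 with Hba-a1. How well its mean measures erythroid RNA was not tested. The values were -0.33 for the platelet list (permutation p = 0.288), -0.04 for the lymphocyte list (permutation p = 0.898) and 0.44 for the microglia list (permutation p = 0.152). The dopaminergic list gave an r of -0.38 and a rho of -0.54 (permutation p = 0.223 and 0.0754). The oligodendrocyte list gave an r of 0.33, the astrocyte list -0.34 and the ependymal and choroid plexus list -0.19 (permutation p = 0.298, 0.273 and 0.564). The log10 of the number of fragments gave 0.04 (permutation p = 0.902). The smallest adjusted p among these 11 relations was 0.477 for r and 0.241 for rho, and rho had the same sign as r in all but the pericyte list, where it was -0.06. Without the 2 libraries farthest from the median of Hba-a1 the largest of these r values was that of the astrocyte list, at -0.64 (unadjusted permutation p = 0.0458). Without replicate 2 of synuclein at 7 weeks alone the astrocyte r was also -0.64 (permutation p = 0.0332, adjusted p = 0.0885). Of these 11, within single times only the ependymal list at 12 weeks had an unadjusted p under 0.05 (r = -0.86, exact permutation p = 0.0278, 6 libraries). With 12 libraries weaker relations are not detectable.

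The genes most like Hba-a1 across the 12 libraries were the beta globin rows. Of 19047 genes with at least 1 CPM on average searched outside the members, Hbb-b1 came first with an r of 0.97 and Hbb-b2 second with 0.95. They were followed by 2310068J16Rik (0.92, mean 1.97 CPM), Cenpi, which encodes a centromere protein (0.90, mean 2.76 CPM), and Wbp1, which encodes a WW domain-binding protein (0.90, mean 94.7 CPM). Next came Srpk3, a kinase of splicing factors (0.89), Zfp763, a zinc finger gene (0.89), and Nop2, a nucleolar RNA methyltransferase (0.87). In all, 4 genes exceeded 0.9 and 29 exceeded 0.8, and the median r was -0.04. Alas2, at 0.94, would rank between Hbb-b2 and 2310068J16Rik. All genes of a library share its depth and scaling, and these r values are a description with no test.

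The main question of the study is how fibrils change the sorted cells, and no hemoglobin row passed the test at either time. For synuclein against saline at 7 weeks, the log2 fold of Hba-a1 was -0.06 ± 0.55 (SE; unadjusted p = 0.912 in the edgeR model of all genes), that of the Hbb-b2 row -0.16 ± 0.56 and that of Alas2 -0.07 ± 0.58. The Hbb-bs row alone gave 1.09 ± 1.26, and the sum of the locus -0.09 ± 0.53. None of the 3 members tested was called, where the background was 0% of 17380 genes by edgeR, with 285 genes at an unadjusted p under 0.05 and none called by DESeq2.

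For synuclein against saline at 12 weeks, the log2 fold of Hba-a1 was -0.26 ± 0.55 (edgeR adjusted p = 0.963), that of the Hbb-b2 row -0.42 ± 0.56 and that of Alas2 -0.09 ± 0.58 (edgeR adjusted p = 0.991). The Hbb-bs row gave -0.80 ± 1.22 and its locus -0.37 ± 0.53. Again 0 of 3 members were called, on a background of 0%, with 968 genes at an unadjusted p under 0.05 and 12 genes called by DESeq2, no member among them. The synuclein effect at 12 weeks minus that at 7 weeks was -0.20 ± 0.78 for Hba-a1, -1.89 ± 1.76 for the Hbb-bs row, -0.29 ± 0.75 for its locus and -0.02 ± 0.82 for Alas2 on the log2 scale. For this difference 0 of 3 members were called on a background of 0%, with 780 genes at an unadjusted p under 0.05 and none called by DESeq2. With standard errors of 0.53 to 0.58 for Hba-a1, the Hbb-bs locus, the Hbb-b2 row and Alas2, a 2-fold change at either time would lie within 2 standard errors of 0. These standard errors do not measure the spread of these rows alone. The edgeR fit draws the spread of each gene toward that of all genes. Its coefficient of variation was 46.9% for Hba-a1, against 46.6% in common over genes. The SD of log2 CPM within groups was 1.03 for Hba-a1, against a median of 0.34 over the genes with at least 50 CPM.

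**Figure D4:**
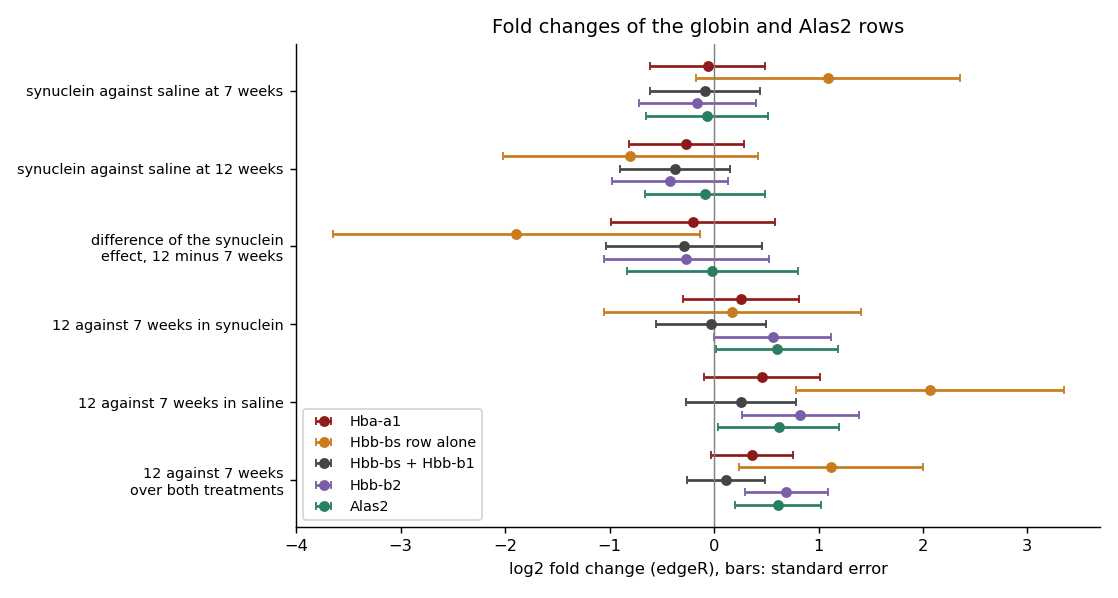
Log2 fold changes (x axis) of Hba-a1, of the Hbb-bs row alone, of the rows Hbb-bs and Hbb-b1 summed, of the Hbb-b2 row and of Alas2 in 6 comparisons (rows), with bars of 1 standard error from edgeR. None of these passed an adjusted p of 0.05, and the Hbb-bs row alone has the widest bars, for example 1.09 ± 1.26 at 7 weeks.

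Over both treatments the estimates of the tested members were above 0 at 12 against 7 weeks, but none passed the test. That comparison gave a log2 fold of 0.36 ± 0.39 for Hba-a1 (edgeR adjusted p = 0.876), 0.69 ± 0.40 for the Hbb-b2 row (edgeR adjusted p = 0.632) and 0.61 ± 0.41 for Alas2 (edgeR adjusted p = 0.736). The Hbb-bs row gave 1.12 ± 0.88 and its locus 0.12 ± 0.37. None of the 3 members tested was called, where 0.834% of 17380 genes were. In synuclein the folds at 12 against 7 weeks were 0.26 ± 0.55 for Hba-a1, 0.18 ± 1.23 for the Hbb-bs row, -0.03 ± 0.53 for its locus and 0.60 ± 0.58 for Alas2. In saline they were 0.46 ± 0.56, 2.07 ± 1.28, 0.26 ± 0.53 and 0.62 ± 0.58 in the same order. Within synuclein and within saline 0 of 3 members were called by edgeR or DESeq2, on a background of 0% of genes by edgeR in both. All genes came to 59 calls in synuclein and 173 in saline by DESeq2, and to 1318 and 1289 at an unadjusted p under 0.05 by edgeR.

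The share of the Hbb-b2 row in beta globin did not overlap between the times in these 12 libraries, while neither beta locus passed a test of its level. The coding sequences behind these rows differ at 1 of 444 bases, so the share also reads how fragments of the shared sequence were assigned, and the part of that assignment was not tested. The Hbb-b2 row made up 17.4%, 12.98% and 14.0% of beta globin FPKM in replicates 1, 2 and 3 of synuclein at 7 weeks, against 16.5%, 13.8% and 16.7% in saline at 7 weeks. In synuclein at 12 weeks it made up 24.1%, 22.1% and 19.1%, against 25.3%, 21.7% and 19.5% in saline at 12 weeks. All 6 libraries at 12 weeks lay above all 6 at 7 weeks, in both treatments, and synuclein and saline overlapped at each time. The mean was 22.0 ± 2.45% at 12 weeks and 15.2 ± 1.85% at 7 weeks (SD, n = 6 each). The difference of 6.74 percentage points had a two-sided exact permutation p of 0.005 within treatments, the smallest that the 400 relabellings allow, and 0.03 after adjustment over 6 ratios of these rows. This ratio was noticed in the data before it was tested on them, and the 6 ratios were chosen after values had been seen. Times without overlap must give that smallest p, so it is a description and no support for a difference beyond these libraries.

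Of the recovered beta globin fragments, the lowest share at 12 weeks was 19.1% of 2501 fragments in replicate 3 of synuclein (95% Wilson interval 17.6% to 20.7%). The highest at 7 weeks was 17.4% of 2734 fragments in replicate 1 of synuclein (95% Wilson interval 16.0% to 18.9%). The intervals cover counting error only, since amplified reads without molecular identifiers are not independent molecules. They overlap for this closest pair. For the other 5 ratios the times overlapped. Beta over alpha was 0.643 ± 0.0706 at 12 weeks and 0.677 ± 0.0471 at 7 weeks (exact permutation p = 0.33, adjusted 0.495). Alas2 as a percentage of Hba-a1 FPKM was 2.19 ± 0.617 at 12 weeks and 1.70 ± 0.236 at 7 weeks (exact permutation p = 0.08, adjusted 0.24). The summed oligodendrocyte markers were also without overlap between the times, at 25093 to 43086 CPM at 12 weeks and 15812 to 24919 CPM at 7 weeks, and their part in the beta share was not tested. The difference in the beta share was 6.19 percentage points without the libraries of synuclein at 12 weeks that lie apart, which leaves only replicate 3 in that group.

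**Figure D5:**
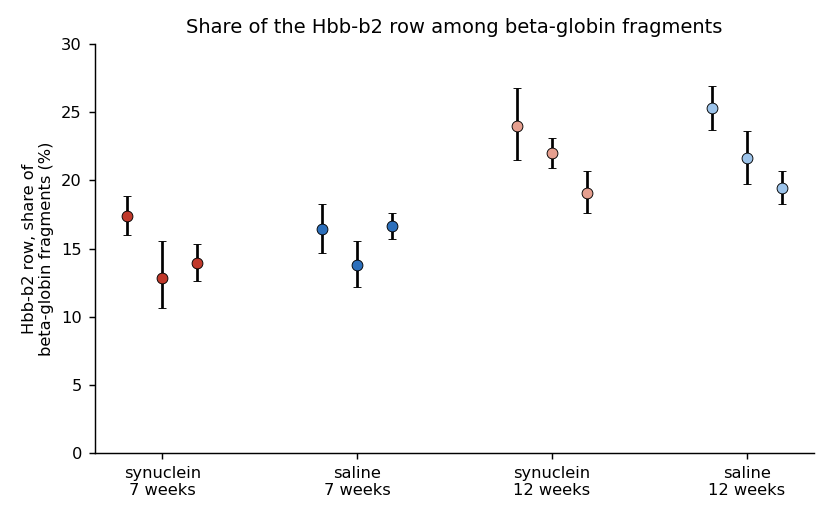
Share of the Hbb-b2 row among recovered beta globin fragments (%), 1 point per library by group, with 95% Wilson intervals for counting error. The 12-week libraries lie at 19.1% to 25.3%, above the 7-week libraries at 12.9% to 17.4%, in synuclein and in saline.

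Other globins were scarce. The embryonic globins Hba-x, Hbb-bh1 and Hbb-y were at 0 in 10, 10 and 7 of 12 libraries, with at most 2, 2 and 9 fragments in a library. Neuroglobin (Ngb) and cytoglobin (Cygb), the globins of neurons and of fibroblast-like and other cells, averaged 8.17 and 15.8 CPM, and myoglobin (Mb), the oxygen store of muscle, 3.38 CPM. Among the 11 of 12 listed other globins with a row, 5 were tested, the Hbb-b1 and Hbb-b2 rows included, and 0 rose and 0 fell in any of the 6 comparisons. Over all genes, 0.834% were called for time over both treatments and 0% in the other comparisons. The median log2 fold of the 5 was 0.01 at 7 weeks and -0.34 at 12 weeks for synuclein against saline, where all genes had a median of 0.01 and -0.04.

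The other enzymes of heme synthesis were present in all 12 libraries. Alas1, which starts heme synthesis outside the erythroid lineage, averaged 271 ± 91.1 CPM (SD, n = 12), ranging between 135 and 431. Alad, the second enzyme, averaged 101 CPM, Fech, which inserts the iron, 98.3 CPM, Cpox 91.8 CPM and Urod 71.0 CPM. Per length, Alas1 averaged 105 FPKM, where Alas2 averaged 50.9 FPKM. All 8 enzymes listed were tested, and 0 rose and 0 fell in any of the 6 comparisons. The background was 0.834% of all genes called for time over both treatments and 0% in the other comparisons. For synuclein against saline the median log2 fold of the 8 enzymes was -0.20 at 7 weeks, with 8 of 8 below 0 (the range was -0.35 to -0.04). At 12 weeks it was -0.25, with 6 of 8 below 0. Of all genes, 51.2% lay above 0 at 7 weeks and 47.3% at 12 weeks, with medians of 0.01 and -0.04. The shared direction of the enzymes was not tested. By edgeR at an unadjusted p under 0.05, synuclein against saline gave 0 of the 8 at 7 weeks and 3 at 12 weeks. All genes gave 285 and 968 of 17380.

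Genes for heme breakdown, transport and scavenging did not pass the test either. Abcg2, an exporter of heme and other compounds, averaged 592 CPM, Slc48a1, a heme transporter, 585 CPM, and Hmox2, the constitutive heme oxygenase, 101 CPM. Blvrb and Blvra, the biliverdin reductases, averaged 53.2 and 32.2 CPM, and Lrp1, a receptor of heme-hemopexin complexes, 43.4 CPM. Hmox1, the inducible heme oxygenase, averaged 15.6 CPM. Of the 11 genes tested, 0 rose and 0 fell in any of the 6 comparisons. Their median log2 fold was -0.15 at 7 weeks and -0.13 at 12 weeks for synuclein against saline. The share of all genes called was 0.834% for time over both treatments and 0% in the other comparisons.

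Most markers of the red cell lineage stood far below the globins. Per length, Slc4a1 (the band 3 anion exchanger) averaged 0.573 FPKM, and the erythroid transcription factors Klf1 and Gata1 averaged 0.848 and 1.48 FPKM. Kel, a blood group protein, was at 0 in 7 of 12 libraries. The list is not specific at its upper end, where Bpgm, which makes the regulator of oxygen binding 2,3-bisphosphoglycerate, averaged 102 FPKM and Slc25a37, the mitochondrial iron importer, 7.53 FPKM. Nfe2, an erythroid and platelet transcription factor, averaged 6.99 FPKM, Epor, the erythropoietin receptor, 5.01, Ermap, a red cell membrane protein, 2.03, and Ank1, which anchors the membrane skeleton, 1.26. The 18 genes with a row summed to 225 to 273 CPM in synuclein at 7 weeks, against 213 to 420 CPM in saline at 7 weeks, and to 272 to 338 CPM in synuclein at 12 weeks, against 238 to 465 CPM in saline at 12 weeks. Of the 14 tested, 0 rose and 0 fell in any of the 6 comparisons. Among all genes 0.834% were called for time over both treatments and 0% in the other comparisons. The median r of the 14 with Hba-a1 was 0.05, with a range of -0.47 to 0.40. The part of blood cells in the globin levels was not tested.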

How the data were processed

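Reads were aligned with TopHat2 2.0.13 and Bowtie2 2.2.3 and assembled into expression values by Cufflinks 2.2.1, as the submitters' processing notes list them. No source used here names the genome build, and coordinates were read as GRCm38 because the globin rows match RefSeq genes of that build. The authors deposited estimated counts and FPKM for each gene and library. Between 98.7% and 98.9% of estimated counts in a library were whole multiples, within 0.02 fragments, of 1 step per library, and dividing by that step gave the fragments. Estimated counts were rounded and tested with edgeR 4.0.16 (R 4.3.3, filterByExpr, TMM, quasi-likelihood, 1 mean per group over 12 libraries, 8 residual degrees of freedom), with Benjamini-Hochberg values over all 17380 genes tested and a threshold of 0.05. Fold changes are given as log2 ± SE, and CPM is TMM-scaled. Correlations used log2 CPM with a prior count of 2, 100000 permutations, and exact enumeration for 6 libraries (scipy 1.17.1). The procedure was tested on simulated data, where few small changes were recovered. Changes of 2-fold were called in 35.8% of changed genes for time over both treatments and in 0% to 9% in the other comparisons. Changes of 4-fold were called in 59.7% and in 22.4% to 50.7%, in the same order. Alternatives used DESeq2 1.42.0, limma 3.58.1, recovered fragments, other scaling and filters, and left out each library. Rows at 1 locus were summed, which was added after the files were seen, because the planned sum of the alpha and of the beta rows could not be made without a row for Hbb-bt. Coding sequences were taken as the longest reading frame of the GENCODE transcripts, and promoter windows from RefSeq. The genes named are the members, up to 6 of each heme, globin and erythroid list by mean CPM, genes past the threshold, and the 8 most like Hba-a1, and Klf1, Slc4a1, Gata1, Kel, Hmox1 and the embryonic globins were named after their values were seen. Single values of 2 listed genes are not reported here. The members and lists were chosen with earlier results of these data known.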

Additional observations from a re-analysis of the deposited data

How the results depend on the processing

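No member was called under any alternative: DESeq2, limma-voom, limma on FPKM, recovered fragments, RLE scaling, no filter, the replicate block, summed locus rows, the groups of a comparison alone (run for the 4 comparisons between 2 groups), and leaving out each library. Without TMM the group means of the members' levels moved by less than 1 SD. Leaving out 1 library moved some of them by over 1.5 times. Without replicate 2 of synuclein at 12 weeks the mean was 594 CPM for Hba-a1, 9.78 for the Hbb-bs row and 69.7 for Alas2, against 954, 29.9 and 109 with it. The Hbb-bs row averaged 15.9 CPM without replicate 2 of synuclein at 7 weeks, against 26.5, and 7.46 without replicate 1 of saline at 7 weeks, against 12.4. Alas2 averaged 45.2 CPM without replicate 3 of saline at 7 weeks, against 75.0. The r of Hba-a1 with Alas2, the Hbb-bs locus and the Hbb-b2 row remained past the threshold in all alternatives run, with Alas2 at 0.90 to 0.98 when each library was left out. The Hbb-b2 share of beta globin kept its direction, with 6.73 percentage points from fragments and 6.07 to 7.31 when each library was left out.

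Folds that had not passed the test changed sign. For Alas2 the difference of the synuclein effect was 0.0051 with recovered fragments, 0.0035 with RLE scaling, 0.0031 with DESeq2, 0.043 without a filter, 0.11 with voom, 0.14 and 0.12 on FPKM and 0.051 with the replicate block. For the Hbb-bs row the sum over its locus gave -0.088 for synuclein against saline at 7 weeks, against 1.09 for the row alone. For 12 against 7 weeks in synuclein it gave -0.028 with the sum, -0.051 with voom and -0.089 and -0.032 on FPKM. Without both libraries that lie apart it gave -0.43, with only replicate 3 left in synuclein at 12 weeks. Leaving out each library, the log2 fold for synuclein against saline ranged between -0.47 and 0.52 at 7 weeks and between -0.92 and 0.20 at 12 weeks for Hba-a1, and between -0.45 and 0.67 and between -0.70 and 0.45 for Alas2. For the Hbb-b2 row it ranged between -0.53 and 0.53 at 7 weeks. The difference of the effect ranged between -0.83 and 0.29 for Hba-a1, between -0.93 and 0.16 for Hbb-b2 and between -0.73 and 0.50 for Alas2. For 12 against 7 weeks in synuclein the range was -0.38 to 0.74 for Hba-a1, -0.055 to 0.97 for Hbb-b2 and -1.40 to 0.94 for the Hbb-bs row.

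The microglia list passed by rho without replicate 2 of synuclein at 12 weeks (0.82) and without both libraries that lie apart (0.81), against 0.47 in all. Weak relations of Hba-a1 changed sign without both libraries that lie apart, where r was 0.17 for the erythroid, 0.089 for the lymphocyte, 0.011 for the astrocyte and 0.38 for the ependymal list and -0.16 for fragments. Leaving out each library, r ranged between -0.18 and 0.17 for the erythroid, -0.26 and 0.028 for the lymphocyte, -0.32 and 0.20 for the endothelial, -0.14 and 0.27 for the pericyte and -0.57 and 0.19 for the ependymal list, and between -0.13 and 0.29 for fragments.

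The counts of all genes called moved more. DESeq2 called 12 genes for synuclein against saline at 12 weeks, and for 12 against 7 weeks 59 in synuclein, 173 in saline and 449 over both. On log2(FPKM + 0.1) and log2(FPKM + 1), limma called 2 and 1 for synuclein against saline at 12 weeks, 1 and 1 for the difference of the effect, 2 and 1 for time in saline and 1 and 5 for time over both. Time in saline gave 7 without a filter, 34 with the replicate block, 49 with its groups alone and 14 without both libraries that lie apart. Time over both gave 246 with the block and 0 without those libraries, against 145. Leaving out each library gave 0 to 1 at 7 weeks and at 12 weeks for synuclein against saline, 0 to 2 for time in synuclein, 0 to 9 in saline and 24 to 214 over both. The cause of these changes was not tested. Samples with the same number correlated at -0.06 to 0.11 in their deviations from the group means, and 1 of 18 pairs exceeded 0.1. Samples with different numbers were not set beside them, so these values cannot settle whether the numbers pair the samples. The replicate block is given only as an alternative.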

Other observations

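Hbb-y, an embryonic beta-like globin, was near 0 in most libraries. It averaged 0.189 ± 0.327 CPM in synuclein at 12 weeks and 1.83 ± 1.22 CPM in saline at 12 weeks (SD, n = 3 each), with at most 9 fragments in a library, and did not pass the filter on low counts. At 7 weeks it averaged 0.095 ± 0.165 CPM in synuclein and was at 0 in all saline libraries.

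Markers of other blood cells were low. The 8 platelet markers summed to 19.2 to 35.3 CPM over the 12 libraries, with Pf4, a platelet chemokine, at a mean of 5.87 CPM. The 7 lymphocyte markers with a row summed to 5.95 to 24.3 CPM and the 9 neutrophil markers to between 4.88 and 33.0 CPM, and only 2 of the neutrophil markers passed the filter, too few to relate to Hba-a1.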
